A study of Homo sapiens with 10 samples.

Results

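Mitotic kinesins, kinetochore proteins, spindle checkpoint proteins and their regulators were examined as a group of 45 genes in OCI-LY10, an established line from a diffuse large B-cell lymphoma of activated B-cell type. The genes were listed by name, with earlier results of these data known, and every probe that the platform's gene table assigns to a listed gene was taken. That gave 68 probes for 44 genes, out of 48107 probes on the array. No probe carried the name SPC24, so that gene was not analysed here. At least 1 probe of each of the 44 genes was detected on all 10 arrays, so all 44 were among the 9041 genes tested. In the study, OCI-LY10 cells were grown in RPMI1640 with serum and received 1 micromolar CC-122 or the solvent DMSO for 18 hours. Each treatment had 5 Illumina BeadChip arrays, numbered 1 to 5. CC-122 (avadomide) is a cereblon modulator: it redirects the ligase that holds cereblon towards Ikaros and Aiolos, lymphoid transcription factors, which are then degraded. All samples are of the same cell line, and separate cultures are not stated for the replicates, so a p-value here reflects only how these samples spread, which may be technical.

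Chromosomes are pulled apart in mitosis by spindle microtubules that attach to the kinetochore, a protein assembly built on the centromere. The spindle checkpoint holds cells in metaphase until every kinetochore is attached, and the anaphase-promoting complex, a ubiquitin ligase, then marks securin and cyclin B for destruction. Transcripts of many of these genes rise in the G2 and M phases of the cell cycle and are low in resting cells, which is why they serve as proliferation markers in lymphoma. In RNA from bulk culture, a smaller share of cells in G2 and M and less of a transcript in each such cell cannot be told apart.

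Between 18043 and 18844 probes were detected per array, at a detection p-value below 0.05. The median raw intensity was 108.9 on CC-122 replicate 3 and 74.0 to 81.6 on the remaining arrays. Within a treatment, arrays correlated across genes at 0.989 to 0.993. The B-cell markers MS4A1 (CD20), CD79A, CD79B, CD22 and CD74 were all detected, with 2 of the 5 lower and 1 higher after CC-122. Of 7 T and NK cell markers with a probe, 0 passed the detection filter. Of the other 16 markers with a probe, those of monocytes, erythroid cells, platelets, fibroblasts and epithelia, 6 passed the filter and 0 were called by limma, with 1 higher and 0 lower at an unadjusted p below 0.05. The 6 included EPCAM, an epithelial adhesion protein, at 8.96 ± 0.27 on DMSO arrays and 8.82 ± 0.13 after CC-122 (SD, n = 5).

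Mitotic genes were lower after CC-122 where they changed, by small amounts. Of the 44 genes, 16 fell, 0 rose and 28 did not pass the test, which was limma over all 9041 genes with a Benjamini-Hochberg adjusted p below 0.05. At an unadjusted p below 0.05 the counts were 27 lower and 0 higher, and over all 9041 genes they were 1304 lower and 1192 higher. At the adjusted threshold, 6.67% of all genes tested were called lower and 8.15% higher. The median log2 fold change of the 44 genes was -0.22, as against -0.01 over all genes tested, and 39 of the 44 were below 0, as were 53.5% of all genes. In 15 of the 44, every CC-122 value lay below every DMSO value, which held for 6.07% of all genes, while 7.34% of all genes lay apart with CC-122 higher. Because earlier results of these data were known when the genes were listed, the list may not be independent of the values compared here. The largest fall was that of NUF2, at 1.64-fold, and the other 15 called genes fell by 1.17-fold to 1.40-fold.

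**Figure D1:**
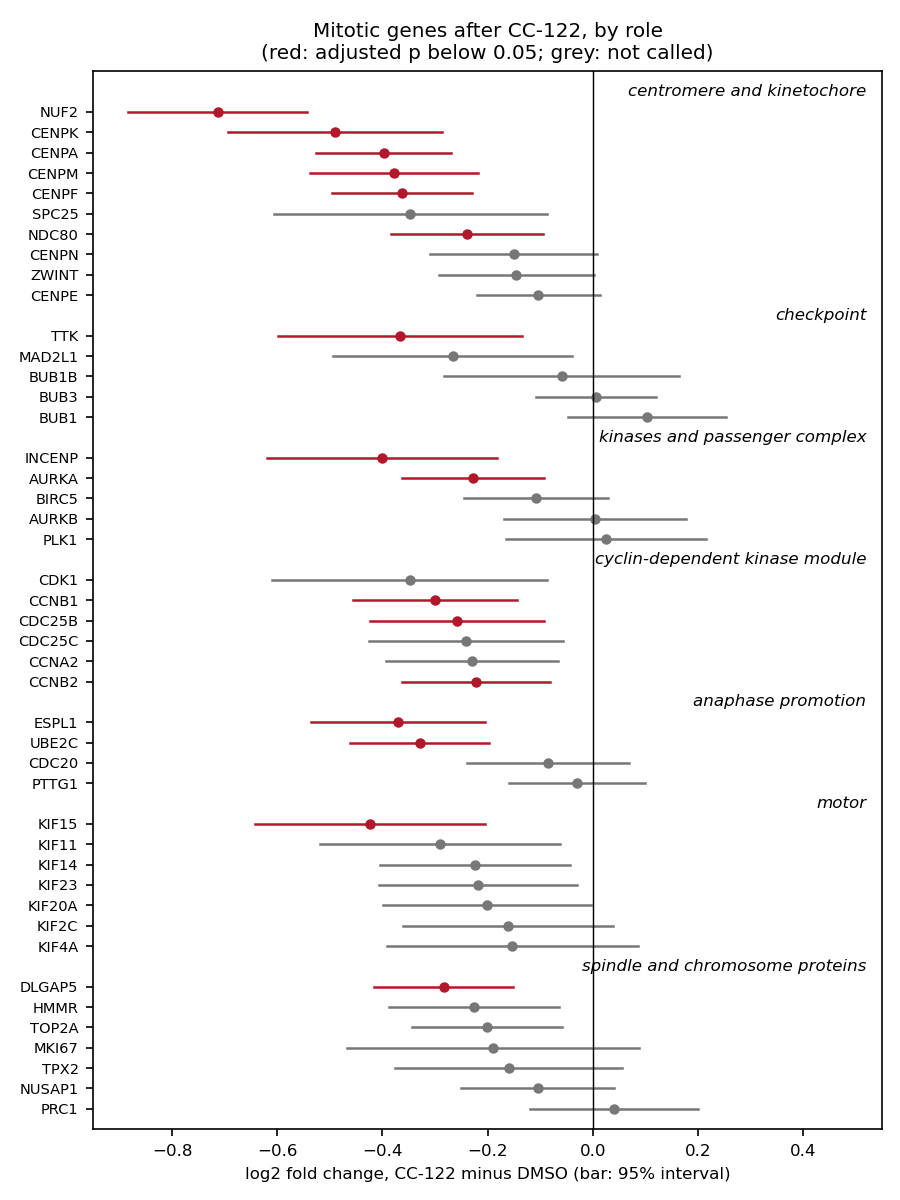
Log2 fold change of each of the 44 mitotic genes after CC-122 (x axis) by role, with 95% intervals from limma as bars. Red points are the 16 genes with an adjusted p below 0.05, all to the left of 0, and grey points are the 28 that did not pass.

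These counts depend on how arrays were scaled to each other. With each array's median over all probes in place of quantile normalization, only NUF2 remained called among the 44, and the split over all genes went from 737 higher and 603 lower to 404 higher and 79 lower. With the median taken over the detected probes, a choice made after the data were seen, 15 of the 44 fell, with 661 higher and 546 lower over all genes. Without the bright array, CC-122 replicate 3, 14 fell, and NDC80, TTK, CCNB2 and CDC25B were not among them.

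The centromere and kinetochore genes included the largest fall. Of 10 tested, 6 were lower and 4 not called, with a median log2 fold change of -0.35. NUF2 is a subunit of the NDC80 complex, the part of the kinetochore that grips microtubules. Its log2 intensities on DMSO arrays 1 to 5 were 8.66, 8.63, 8.60, 8.95 and 8.58, and on CC-122 arrays 1 to 5 they were 8.01, 8.0, 7.85, 7.99 and 8.01. The groups lay apart, with DMSO replicate 4 above its group and CC-122 replicate 3 below the other treated arrays. The log2 fall of NUF2 was 0.71 ± 0.08 (SE, log2 fold change -0.71, adjusted p = 5.40e-05), and its median raw intensity was 436 with DMSO and 285 with CC-122. A dimmer kept probe of NUF2 fell by 0.28 ± 0.08, also called among probes, and a further probe below the detection filter was detected on 3 DMSO arrays and on 0 CC-122 arrays.

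Because the genes moved in a common direction, their promoters were searched for TTTGAA, the core of the cell cycle genes homology region that binds the DREAM and MMB complexes, and for CCAAT, the box bound by NF-Y. Both motifs were searched on both strands from 250 bases before to 50 after each start in a set of RefSeq promoters (GRCh38.p14), which does not cover every gene. Matches of the motifs can overlap, which occurred in 1 of the genes, MKI67, where they shared 1 base. The promoter of NUF2 is shown as the gene with the largest fall of the centromere group. Its 250 bases before the start hold neither motif, and TTTGAA, in capitals, begins at base 17 of the transcript, shown in a stretch of 22 bases.
NUF2, chr1:163321704-163321953, plus strand: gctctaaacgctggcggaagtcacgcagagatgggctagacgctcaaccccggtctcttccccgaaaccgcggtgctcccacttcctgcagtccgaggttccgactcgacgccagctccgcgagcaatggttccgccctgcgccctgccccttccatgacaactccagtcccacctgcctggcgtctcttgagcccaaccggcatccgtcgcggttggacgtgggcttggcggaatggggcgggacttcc
NUF2, chr1:163321962-163321983, plus strand: gcggcaagTTTGAAaagtgatg
The motif search over all the genes is given after the role groups.

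Of the other subunits of the NDC80 complex, NDC80 was called and SPC25 was not. NDC80 itself read 8.83, 8.84, 8.82, 8.86 and 8.81 on DMSO arrays and 8.56, 8.62, 8.41, 8.62 and 8.74 on CC-122 arrays. Its groups did not overlap, and it fell by 0.24 ± 0.07 (SE, adjusted p = 0.0304). That call was lost on leaving out DMSO replicate 1, 2, 3 or 4 or CC-122 replicate 1, 2 or 3, with adjusted p up to 0.0657 when 1 array was left out, and when replicate numbers were blocked (adjusted p = 0.0556). SPC25 differed by -0.35 ± 0.12 and was not called (adjusted p = 0.0733), with CC-122 replicate 2 at 7.25 inside the DMSO range of 7.10 to 7.38 and the other treated arrays at 6.52 to 7.02.

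Among the constitutive centromere proteins, CENPA, the histone H3 variant that marks the centromere, read 9.08, 9.10, 9.0, 9.13 and 8.94 on DMSO arrays and 8.68, 8.66, 8.69, 8.59 and 8.63 on CC-122 arrays. Every treated array lay below every DMSO array, and CENPA fell by 0.40 ± 0.06 (adjusted p = 5.52e-04). A dimmer probe of CENPA gave -0.21 ± 0.08 and was not called among probes. CENPK, a subunit of the inner kinetochore network that binds CENPA chromatin, read 8.68, 8.53, 8.58, 8.80 and 8.65 with DMSO and 8.21, 8.29, 7.83, 8.28 and 8.18 with CC-122. It fell by 0.49 ± 0.09 (adjusted p = 0.00317), with CC-122 replicate 3 lowest. CENPM, of the same network, read 8.57, 8.58, 8.50, 8.61 and 8.55 with DMSO and 8.24, 8.41, 8.13, 8.06 and 8.09 with CC-122. Both of its probes fell, the brighter by 0.38 ± 0.07 (adjusted p = 0.00363 among genes) and the dimmer by 0.45 ± 0.08. CENPN, which reads the CENPA nucleosome, differed by -0.15 with overlapping groups and was not called (95% interval -0.31 to 0.01).

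In the outer kinetochore, CENPF, a large protein that loads onto kinetochores in late G2, read 7.62, 7.69, 7.69, 7.58 and 7.74 on DMSO arrays and 7.25, 7.23, 7.32, 7.30 and 7.41 on CC-122 arrays. The groups were apart, and CENPF fell by 0.36 ± 0.06 (adjusted p = 0.00136). CENPE, the kinetochore kinesin that brings chromosomes to the spindle equator, also had groups that did not overlap, at 8.50 to 8.60 with DMSO and 8.42 to 8.48 with CC-122. Its difference of -0.10 ± 0.05 did not pass (adjusted p = 0.241). ZWINT, which links the outer kinetochore to checkpoint proteins, differed by -0.15 ± 0.07 and was not called, while its 2 other kept probes gave -0.12 and -0.37.

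**Figure D2:**
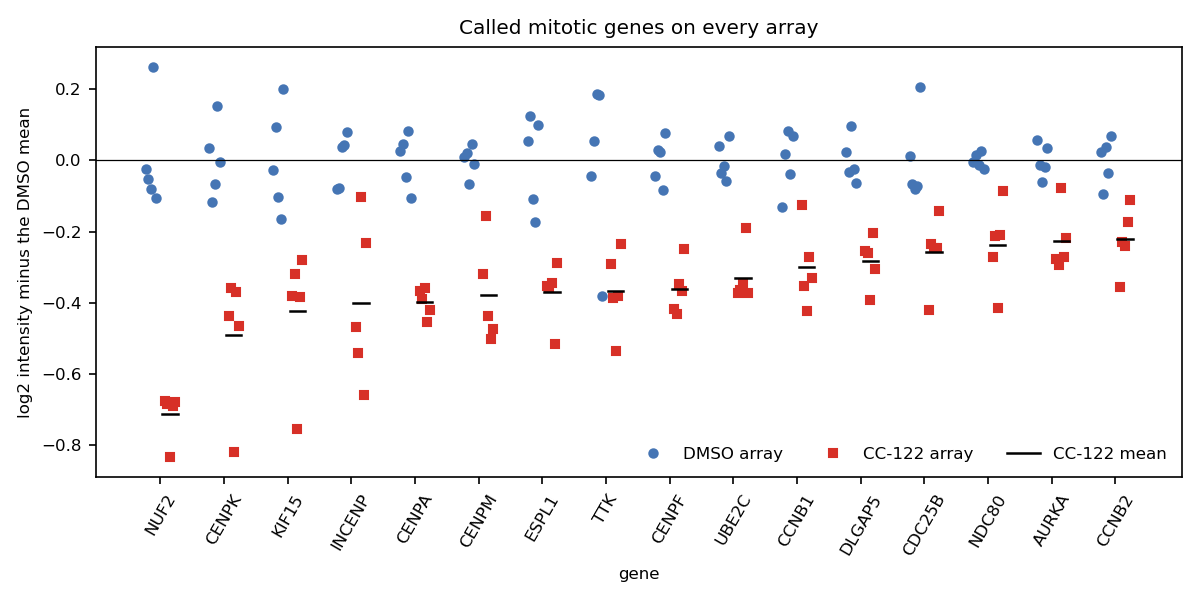
Log2 intensity of the 16 called genes on every array, minus each gene's DMSO mean (y axis), with genes on the x axis in order of the fall. Blue circles are DMSO arrays, red squares CC-122 arrays and black lines the CC-122 means; only TTK and CCNB1 have groups that overlap.

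Of 5 checkpoint genes tested, 1 was lower and 4 not called, with a median log2 fold change of -0.06. TTK, the kinase MPS1 that starts checkpoint signalling at unattached kinetochores, read 8.94, 9.04, 9.18, 9.17 and 8.61 on DMSO arrays and 8.70, 8.60, 8.45, 8.61 and 8.75 on CC-122 arrays. DMSO replicate 5 lay among the treated arrays, and TTK fell by 0.37 ± 0.11 (adjusted p = 0.0369). The call was lost on leaving out DMSO replicate 1, 2, 3 or 4 or CC-122 replicate 1, 2, 3 or 4, with adjusted p up to 0.0888 when 1 array was left out. It was also lost with no filter on dim probes, with medians over detected probes (adjusted p = 0.0561) and when replicate numbers were blocked (adjusted p = 0.0904).

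The remaining checkpoint genes had overlapping groups. MAD2L1, the checkpoint protein MAD2 that binds CDC20, differed by -0.27 ± 0.10 and was not called (adjusted p = 0.116), and its dimmer probe gave -0.40. MAD2L1 had, like TTK, its lowest DMSO value on replicate 5, at 10.54 where the remaining ones were at 10.80 to 11.01. BUB1B (BUBR1), a part of the checkpoint complex that inhibits the ligase, differed by -0.06 (95% interval -0.28 to 0.16). BUB3, the WD40 partner of BUB1 and BUBR1, was at 11.11 ± 0.03 with DMSO and 11.11 ± 0.02 with CC-122 (SD), a difference of 0.01 (95% interval -0.11 to 0.12), and its 3 dimmer probes gave -0.02 to 0.07. BUB1, the kinase that recruits shugoshin to centromeres, had the highest fold change of the 44 genes at 0.10 (95% interval -0.05 to 0.25).

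Of the mitotic kinases and the chromosomal passenger complex, 2 of 5 tested were lower, with a median log2 fold change of -0.11. INCENP, the scaffold of the passenger complex that corrects faulty attachments, read 6.52, 6.52, 6.64, 6.65 and 6.68 on DMSO arrays and 6.13, 6.06, 6.50, 5.94 and 6.37 on CC-122 arrays. The groups did not overlap, although CC-122 replicate 3 came close to the DMSO arrays, and INCENP fell by 0.40 ± 0.10 (adjusted p = 0.0177). The size was -0.23 without background correction, and the call was lost with the mean of the probes of INCENP. Its dimmer probe, detected on 3 DMSO and 3 CC-122 arrays, gave -0.17 ± 0.11 and was not called among probes. AURKA, the Aurora kinase of the spindle poles, read 10.03, 9.96, 9.91, 9.95 and 10.01 with DMSO and 9.70, 9.68, 9.90, 9.70 and 9.75 with CC-122. It fell by 0.23 ± 0.06 (adjusted p = 0.0274), a call lost on leaving out DMSO replicate 1, 2 or 5 or CC-122 replicate 1, 2, 4 or 5 (adjusted p up to 0.0666) and in the blocked fit (adjusted p = 0.0669). Its groups did not overlap, CC-122 replicate 3 lying just below the DMSO arrays.

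The other passenger genes and PLK1 were not called. AURKB, the Aurora kinase of the passenger complex, lay at 9.33 to 9.72 on DMSO arrays and 9.42 to 9.62 on CC-122 arrays, a difference of 0.0044 (95% interval -0.17 to 0.18). BIRC5 (survivin), which docks the complex on centromeres, differed by -0.11 (95% interval -0.24 to 0.03). PLK1, a kinase of mitotic entry and spindle assembly, differed by 0.02 (95% interval -0.17 to 0.21). CDCA8, a passenger gene from the other lists, differed by -0.23 ± 0.08 and was not called (adjusted p = 0.0793). In 1 complex, then, INCENP passed the test by its brighter probe and AURKB, BIRC5 and CDCA8 did not. That contrast was not itself tested.

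All 6 genes of the cyclin-dependent kinase module were below 0, at -0.22 to -0.35, and 3 were called lower. All 6 were lower at an unadjusted p below 0.05, as were 1304 of the 9041 genes tested. CCNB1 (cyclin B1), the partner of CDK1 in mitosis, read 8.54, 8.69, 8.75, 8.63 and 8.74 on DMSO arrays and 8.55, 8.32, 8.25, 8.40 and 8.34 on CC-122 arrays. CC-122 replicate 1 overlapped the DMSO arrays, and CCNB1 fell by 0.30 ± 0.07 (adjusted p = 0.0136, and adjusted p = 0.0541 in the blocked fit). CCNB2 (cyclin B2) read 10.15, 10.04, 10.17, 10.09 and 10.20 with DMSO and 9.78, 9.90, 9.89, 9.96 and 10.02 with CC-122. It fell by 0.22 ± 0.06 (adjusted p = 0.0362), with groups that did not overlap. CDC25B, a phosphatase that activates CDK1, read 9.43, 9.35, 9.33, 9.34 and 9.62 with DMSO and 8.99, 9.18, 9.17, 9.17 and 9.27 with CC-122. It fell by 0.26 ± 0.08 (adjusted p = 0.0388), also without overlap.

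Of these 3 calls, that of CCNB2 was lost in 7 of 10 fits with 1 array left out, and that of CDC25B in 8 of 10. CCNB2 lost its call on leaving out DMSO replicate 1, 3, 4 or 5 or CC-122 replicate 1, 2 or 3 (adjusted p up to 0.0828), in the blocked fit (adjusted p = 0.0620) and with no filter on dim probes. CDC25B lost it on leaving out DMSO replicate 1, 2, 4 or 5 or CC-122 replicate 1, 2, 3 or 4 (adjusted p up to 0.0867) and with no filter on dim probes. CDK1, the kinase that drives entry into mitosis, differed by -0.35 ± 0.12 and was not called (adjusted p = 0.0737). Its value on DMSO replicate 5 was 9.60, within the CC-122 range of 9.47 to 9.87, and the other DMSO arrays were at 9.97 to 10.24. CCNA2 (cyclin A2) was not called at -0.23 ± 0.08 (adjusted p = 0.0620), nor was CDC25C, a further CDK1 phosphatase, at -0.24 ± 0.08 (adjusted p = 0.0787). The 2 other kept probes of CDC25C gave -0.13 and 0.02.

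The 4 genes of anaphase promotion divided evenly, with 2 lower, 2 not called and a median log2 fold change of -0.21. UBE2C, the ubiquitin-conjugating enzyme that serves the anaphase-promoting complex, read 10.90, 10.82, 10.84, 10.80 and 10.93 on DMSO arrays and 10.49, 10.49, 10.51, 10.67 and 10.49 on CC-122 arrays. CC-122 replicate 4 stood above the other treated arrays and still below every DMSO array. UBE2C fell by 0.33 ± 0.06 (adjusted p = 0.00263), and its dimmer probe fell by 0.55 ± 0.15. ESPL1 (separase), the protease that cuts cohesin at anaphase, read 7.32, 7.39, 7.16, 7.09 and 7.37 with DMSO and 6.91, 6.91, 6.92, 6.75 and 6.98 with CC-122. It fell by 0.37 ± 0.08 (adjusted p = 0.00518) with no overlap of the groups.

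PTTG1 (securin), the inhibitor that holds separase in check, was at 11.72 ± 0.06 with DMSO and 11.69 ± 0.07 with CC-122 (SD), a difference of -0.03 (95% interval -0.16 to 0.10). CDC20, which activates the ligase once the checkpoint is met, differed by -0.08 (95% interval -0.24 to 0.07). Both genes had overlapping groups. The promoter of ESPL1 is shown as the anaphase gene with the largest fall among those in the promoter table. It holds ATTGG, which is CCAAT on the opposite strand, 48 bases before the start, and TTTGAA 31 bases before it, both in capitals.
ESPL1, chr12:53268049-53268298, plus strand: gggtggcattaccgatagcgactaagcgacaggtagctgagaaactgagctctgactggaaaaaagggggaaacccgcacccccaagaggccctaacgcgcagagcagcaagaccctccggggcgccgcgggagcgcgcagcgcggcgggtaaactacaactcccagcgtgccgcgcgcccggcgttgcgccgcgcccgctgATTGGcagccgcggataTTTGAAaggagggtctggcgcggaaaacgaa

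All 7 kinesins of the motor group had log2 fold changes below 0, at -0.15 to -0.42 with a median of -0.22. CENPE, a kinesin counted with the centromere group, was at -0.10. Of the 7, 1 was called lower, while 5 were lower at an unadjusted p below 0.05, as were 1304 of the 9041 genes tested. KIF15, a kinesin that helps to hold the spindle bipolar, read 7.12, 7.24, 7.04, 6.98 and 7.35 on DMSO arrays and 6.77, 6.83, 6.39, 6.76 and 6.87 on CC-122 arrays. CC-122 replicate 3 was lowest and the groups did not overlap. KIF15 fell by 0.42 ± 0.10 (adjusted p = 0.0131), with a size of -0.28 without background correction. Its promoter holds the motif as TTCAAA, which is TTTGAA on the opposite strand, 35 bases before the start and in capitals.
KIF15, chr3:44761544-44761793, plus strand: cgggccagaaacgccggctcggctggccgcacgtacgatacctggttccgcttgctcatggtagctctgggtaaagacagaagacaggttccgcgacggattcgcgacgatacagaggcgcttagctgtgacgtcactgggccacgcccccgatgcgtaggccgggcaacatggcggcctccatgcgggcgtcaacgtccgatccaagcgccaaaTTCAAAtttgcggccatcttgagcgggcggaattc

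KIF11 (Eg5), the main motor that pushes spindle poles apart, differed by -0.29 ± 0.10 and was not called (adjusted p = 0.0858). It lay at 8.38 to 8.69 with DMSO, and only CC-122 replicate 5, at 8.57, fell within that range, the other treated arrays being at 7.97 to 8.27. In the blocked fit KIF11 passed (adjusted p = 0.0448). KIF14 and KIF23 (MKLP1), motors of cytokinesis, differed by -0.22 ± 0.08 and -0.22 ± 0.09, and KIF20A (MKLP2), which brings the passenger complex to the midzone, by -0.20 ± 0.09. KIF2C (MCAK), which takes microtubules apart at kinetochores, differed by -0.16 ± 0.09 and the chromokinesin KIF4A by -0.15 ± 0.11. None of these 5 was called by limma (adjusted p 0.0949 for KIF14 and higher for the others).

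Of the 7 spindle and chromosome proteins, 1 was lower and 6 not called, with a median log2 fold change of -0.19. DLGAP5 (HURP), which stabilises kinetochore fibres, read 10.12, 10.06, 10.19, 10.07 and 10.03 on DMSO arrays and 9.84, 9.83, 9.70, 9.89 and 9.79 on CC-122 arrays. The groups were apart, and both probes fell, the brighter by 0.28 ± 0.06 (adjusted p = 0.00718 among genes) and the dimmer by 0.27 ± 0.07. HMMR, a microtubule-binding protein of the spindle poles, differed by -0.23 ± 0.07 (adjusted p = 0.0620) and TOP2A, the topoisomerase that untangles sister chromatids, by -0.20 ± 0.07 (adjusted p = 0.0600), neither being called. TPX2, an activator of AURKA, differed by -0.16 (95% interval -0.38 to 0.06), and NUSAP1, which bundles spindle microtubules, by -0.11 (95% interval -0.25 to 0.04). PRC1, the bundler of the anaphase midzone, differed by 0.04 (95% interval -0.12 to 0.20). MKI67, which codes for the proliferation antigen Ki-67, differed by -0.19 (95% interval -0.47 to 0.09). Its treated arrays spread from 5.12 to 5.89 around DMSO values of 5.63 to 5.86. The only probe of MKI67 was dim, with a median raw intensity of 110 with DMSO and 102 with CC-122. Medians over all probes were 74.0 to 108.9 per array.

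Averaged over genes on each array, the centromere, motor, anaphase, cyclin-dependent kinase and spindle groups separated the treatments. The checkpoint and the kinase and passenger groups did not. Relative to the DMSO mean, the centromere mean lay between -0.03 and 0.09 log2 units on DMSO arrays and between -0.45 and -0.24 on CC-122 arrays. For motors the ranges were -0.10 to 0.08 and -0.33 to -0.13, and for anaphase promotion they were -0.07 to 0.03 and -0.24 to -0.18. The checkpoint means ran from -0.07 to 0.07 with DMSO and from -0.20 to -0.0049 with CC-122, where replicate 5 lay inside the DMSO range. The cyclin-dependent kinase module lay at -0.01 to 0.04 with DMSO and -0.29 to -0.23 with CC-122. Spindle and chromosome proteins lay at -0.04 to 0.05 with DMSO and -0.23 to -0.10 with CC-122. The share of genes called lower was 60% for centromere and kinetochore, 20% for checkpoint, 14.3% for motors and 50% for anaphase promotion, out of 10, 5, 7 and 4 genes. It was 6.67% over all genes tested. The checkpoint and motor shares are 1 gene each, TTK and KIF15. The call of TTK was lost in 8 of 10 fits with 1 array left out. Differences between role groups were not tested. Over all 44 genes the mean was 8.92 ± 0.02 with DMSO and 8.69 ± 0.03 with CC-122 (SD, n = 5), and 36 to 42 of the genes were below their DMSO mean on each CC-122 array, as against 21 to 29 on each DMSO array.

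**Figure D3:**
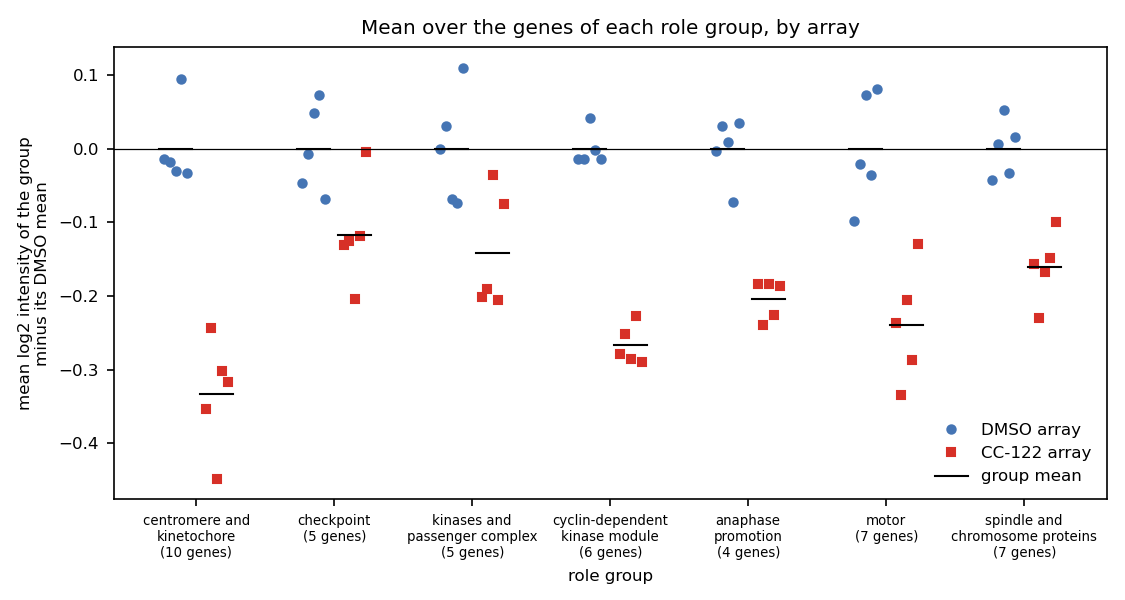
Mean log2 intensity over the genes of each role group on every array, minus the group's DMSO mean (y axis), by role group (x axis, with the number of genes). Blue circles are DMSO arrays, red squares CC-122 arrays and black lines group means; the treatments overlap for the checkpoint and the kinase and passenger groups.

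**Figure D4:**
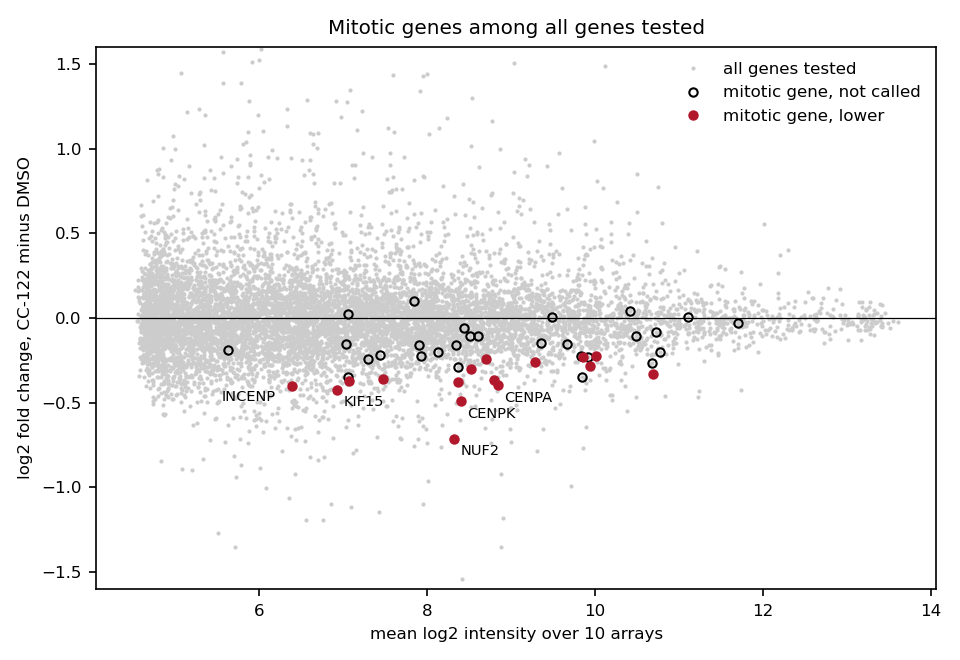
Log2 fold change after CC-122 (y axis) against the mean log2 intensity over the 10 arrays (x axis) for all 9041 genes tested, in grey, with 18 genes beyond 1.6 log2 units not drawn. Filled red circles are the 16 called mitotic genes and open circles the 28 not called, and 39 of the 44 lie below 0.

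Several probes were kept for 19 of the 44 genes, and 1 probe for the other 25. Kept probes of opposite sign occurred in 2 of the 19, BUB3 and CDC25C. When all 17125 detected probes were tested in place of genes, 16 of the 67 kept probes of these genes were called lower and 0 higher by limma, beside 4.34% of all probes lower and 5.77% higher. The brightest probe was called in that test for 12 of the 16 called genes, the exceptions being NDC80, TTK, CCNB2 and CDC25B. Of 7 further probes of called genes, 4 were called lower, those of NUF2, CENPM, UBE2C and DLGAP5.

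**Figure D5:**
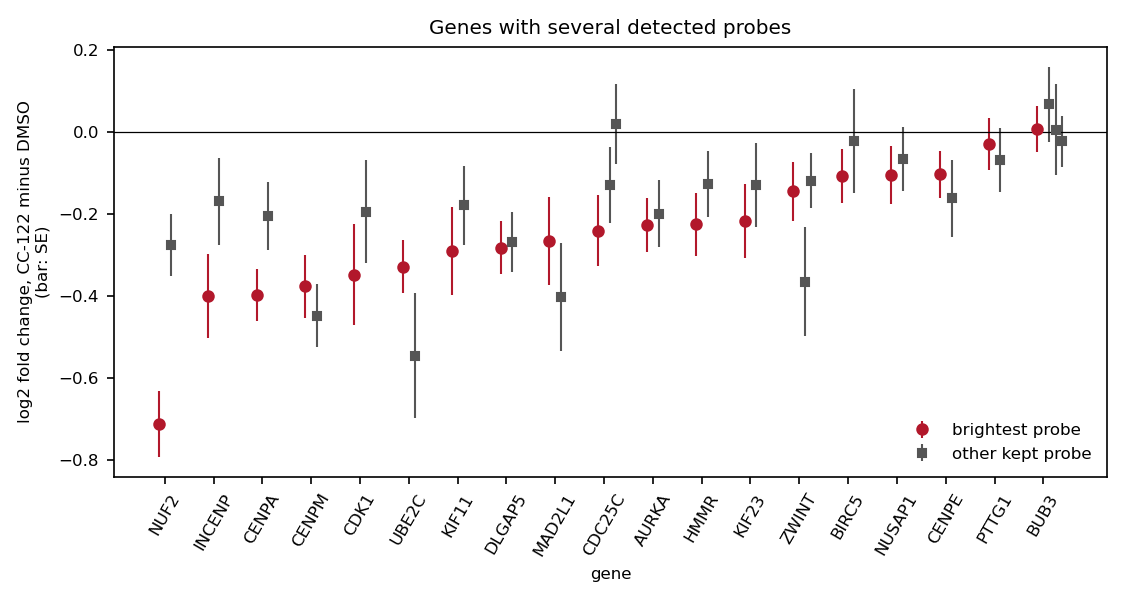
Log2 fold change after CC-122 of every kept probe of the 19 genes with several such probes (y axis, bars show the SE), with the brightest probe of each gene in red and the others in grey. The 2 kept probes of NUF2 differ in size, at -0.71 and -0.28, and both are below 0.

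Of the 45 genes, 38 had a start in the set of RefSeq promoters used. That set held no entry for CENPM, BUB3, TTK, AURKA, BIRC5, UBE2C and TPX2, so their promoters were not searched. TTTGAA on either strand was present for 27 of the 38 (71.1%), as against 18.2% of all 27305 genes in the set. CCAAT on either strand was present for 32 (84.2%), as against 39.7%, and both motifs for 23 (60.5%), as against 8.37%. A gene with several listed starts was counted once, if any of its windows held the motif. The genes were listed for their mitotic role, with earlier results of these data known, so these shares describe the list and not the response to CC-122. Genes that fell and genes that did not pass held TTTGAA in 9 of 12 and 18 of 25 cases. They held CCAAT in 9 of 12 and 22 of 25 cases, and both motifs in 6 of 12 and 17 of 25. Besides NUF2, KIF15 and ESPL1, whose sequences are printed above, called genes with TTTGAA included CENPA 18 bases before the start, CCNB2 29 bases before it and INCENP 10 bases before it, while no match was found for CENPK, CCNB1 and CDC25B. A match is a description of the letters and was not tied to binding here.

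Other genes of mitosis, from lists that did not include the 45, were measured alongside. Of 92 tested, 13 were lower (14.1%), 3 higher and 76 not called, with a median log2 fold change of -0.12. The shares over all genes tested were 6.67% lower and 8.15% higher. The count lower was 23 to 28 with other background corrections or an intensity trend, and 20 among probes detected on all 10 arrays. Of 23 other centromere and kinetochore genes, 2 were lower (8.70%, near the share over all genes) and 1 higher. OIP5 (MIS18B), which loads CENPA onto centromeres, fell by 0.53 ± 0.08 (SE, adjusted p = 7.53e-04), from 9.79 ± 0.13 to 9.26 ± 0.12 (SD). CENPC, which anchors the inner kinetochore, fell by 0.29 ± 0.09, a call lost on leaving out DMSO replicate 1, 2 or 5 or CC-122 replicate 1, 2 or 3 (adjusted p up to 0.0909) and under 7 other settings, with a size of -0.16 at a background offset of 50. CENPB, which binds a motif in centromeric satellite DNA, rose by 0.38 ± 0.08 (adjusted p = 0.00443).

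Guardians of cohesion and partners of the checkpoint had 3 lower of 8 tested (37.5%, beside 6.67% of all genes tested). SGO1 and SGO2, the shugoshins that protect centromeric cohesin, fell by 0.39 ± 0.08 and 0.36 ± 0.09, and HASPIN, the histone H3 kinase that recruits the passenger complex, fell by 0.38 ± 0.08, with -0.21 without background correction. Subunits and regulators of the anaphase-promoting complex were a separate list. Of 14 tested, limma called 0 lower and 2 higher, with 1 lower and 2 higher at an unadjusted p below 0.05. Over all 9041 genes tested, 8.15% were called higher, and 1304 were lower and 1192 higher at an unadjusted p below 0.05. CDC26 rose from 9.65 ± 0.10 to 10.07 ± 0.07 (SD, adjusted p = 9.41e-04) and ANAPC7 rose by 0.31 ± 0.07 (adjusted p = 0.00872), both subunits of the complex. Among 4 other mitotic motors limma called 0, with 2 lower at an unadjusted p below 0.05.

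Of 12 other genes of mitotic entry 2 were lower (16.7%, beside 6.67% of all genes tested). They were LIN9, a MuvB subunit of the DREAM and MMB complexes, at -0.42 ± 0.10 and PKMYT1, a kinase that restrains CDK1, at -0.41 ± 0.10. Without background correction these were at -0.27 and -0.25, and PKMYT1 lost its call with the mean of its probes. Of 17 other spindle and cytokinesis genes 5 were lower (29.4%). CKAP2L, a spindle protein, fell by 0.49 ± 0.06 (adjusted p = 1.23e-04, and -0.33 without background correction), CDCA3 by 0.45 ± 0.07, CEP55, which acts in the final cut of cytokinesis, by 0.35 ± 0.07 and FAM83D by 0.30 ± 0.07. Of 14 condensin and cohesin genes 1 was lower (7.14%, near the 6.67% of all genes), the condensin subunit NCAPG at -0.25 ± 0.07. That call was lost on leaving out DMSO replicate 3 or 5 or CC-122 replicate 1, 2 or 3 (adjusted p up to 0.0634). With medians over all probes, 0 of the 92 genes were called in either direction.

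For comparison, DNA replication genes had 7 lower of 36 tested (19.4%, beside 6.67% of all genes) and 0 higher by limma. Their median log2 fold change was -0.07. At an unadjusted p below 0.05, 10 were lower and 0 higher, beside 1304 lower and 1192 higher of all 9041 genes. The largest falls there were those of ORC6 at -0.59 ± 0.11 and ORC2 at -0.46 ± 0.07, subunits of the origin recognition complex, followed by MCM10 at -0.38 ± 0.07 and POLE2 at -0.36 ± 0.08. Whether the mitotic and replication lists differ was not tested.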

How the data were processed

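The 45 genes, their role groups and the other lists were chosen with earlier results of these data known. The authors deposited a raw probe intensity and a detection p-value for each probe and array, without normalization per the file name. The authors' own normalized table, whose range is that of log2 values, was deposited too and served as an alternative: each column correlated with its own array at 0.9999 or more, their median was 4.54, and the normalization method is unknown. No label or header names the scanner software. Background correction and scaling used the neqc function (limma 3.58.1, R 4.3.3), with the background taken from detection p-values, an offset of 16, quantile normalization and log2, after 1 probe with a missing value was left out. Gene names came from the platform annotation: 26359 had 1 gene, 3 several, and 21745 were unnamed. Symbols were updated through gene identifiers to GRCh38.p14, which matched 26326. Probes with a detection p below 0.05 on at least 5 arrays were kept (17125), and the probe with the highest mean stood for its gene (9041 genes). The treatment contrast was fitted in limma with lmFit and eBayes (two-sided tests), p-values were adjusted by Benjamini-Hochberg across the 9041 genes, and calls were made at an adjusted p below 0.05. Of the other lists, the called genes with the largest change were named, up to 4 a list. The number of arrays limits the precision. The calculation was tested on simulated data, with fewer genes changed than were called here. Of 51 genes changed by 0.25 log2 units, 8 were called in the right direction. The counts were 27 of 59 at 0.35 and 32 of 45 at 0.5. A gene not called may therefore have changed by such amounts. Promoters are RefSeq sequences of GRCh38.p14.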

Additional observations from a re-analysis of the deposited data

Results flagged for a closer look

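An array stood apart from the other 4 of its group in 10 of 104 checks of a gene or a role mean, where chance flags about 1 in 20. CC-122 replicate 3, the bright array, was low for CENPK at 7.83 (others 8.18 to 8.29), NUF2 at 7.85 (7.99 to 8.01) and KIF15 at 6.39 (6.76 to 6.87). DMSO replicate 4 was high for NUF2 at 8.95 (8.58 to 8.66), KIF20A at 8.48 (8.13 to 8.21) and the centromere and kinetochore mean at 8.74 (8.61 to 8.63). UBE2C was high on CC-122 replicate 4 at 10.67 (10.49 to 10.51), and BUB1 was high on CC-122 replicate 5 at 8.06 (7.83 to 7.90). The mean of all 44 genes was high on CC-122 replicate 5 at 8.74 (8.67 to 8.69), and that of the cyclin-dependent kinase module on DMSO replicate 3 at 9.32 (9.27 to 9.28). Calls for NUF2, CENPK, KIF15 and UBE2C held without any 1 array.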

How the results depend on the processing

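Of the 44 genes, 11 to 16 fell with any 1 array left out, 25 both with an intensity trend and with no background correction, and 1 with medians over all probes, where the median log2 fold change was -0.13. Over all genes tested the median was 0.07 with that scaling, as against -0.01 in the main fit. The cause of the smaller count with medians over all probes was not tested. In no setting run was any of the 44 called higher. With medians over all probes, counts lower were 1 for centromere and kinetochore and 0 for the other 6 role groups, and 79 lower and 404 higher over all genes, with 0 of the other mitotic genes in either direction. With a background offset of 50, without background correction and with an intensity trend, counts lower were 2, 2 and 2 (checkpoint), 6, 6 and 6 (cyclin-dependent kinase module), 2, 3 and 3 (motors), 3, 3 and 3 (spindle and chromosome proteins) and 23, 28 and 27 (other mitotic genes). Among probes detected on all 10 arrays, 3 spindle genes and 20 other mitotic genes fell. Checkpoint counts were 0 with no filter on dim probes, with a replicate block, renormalized without CC-122 replicate 3 and with medians over kept probes. The cyclin-dependent kinase module had 1 with no filter and with a replicate block, and the kinase group 1 with the mean of probes and with a replicate block. Spindle genes had 2 when renormalized without CC-122 replicate 3. With 1 array left out, counts ran from 0 to 2 (checkpoint), 1 to 3 (cyclin-dependent kinase module) and 1 to 2 (kinase, motor and spindle groups). With the replicate number as a block, 12 of the 44 fell, 11 of them also called in the main fit, and motors had 2. Same-numbered arrays deviated together at correlations of -0.01 to 0.14. For 4 of 5 numbers the DMSO array matched the CC-122 array of its own number best, and same-numbered arrays carry consecutive numbers in the file headers. The labels do not state pairs. Whether the numbers are pairs was not settled, and the main fit did not use them. Signs turned only for uncalled genes: BUB1B (0.033), CDC20 (0.012) and PTTG1 (0.050) with medians over all probes, BUB3 (-0.0059) with medians over kept probes, AURKB (-0.027) renormalized without CC-122 replicate 3. With 1 array left out AURKB ran from -0.036 to 0.060, BUB3 from -0.0043 to 0.020 and PLK1 from -0.039 to 0.065. Medians over kept probes and the renormalization were chosen after seeing the data.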
